A study of Mus musculus with 6 samples.

Results

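Described here are 10 genes of the cell cycle brake and of the p53 pathway: Cdkn1a, Cdkn1b, Cdkn2a, Cdkn2b, Cdkn2c, Rb1, Trp53, Mdm2, Trp53inp1 and Ccng1. They were chosen by symbol with earlier results of these data known, are 10 of the 11896 named genes in the deposited table, and have 20 listed transcripts. The data are RNA-seq of primary bone marrow stromal cells, the adherent marrow cells that can form bone and fat, from mice. Of the 6 libraries, 3 came from mice with the Pth1rΔNLS allele of Pth1r, the gene of the parathyroid hormone receptor, heterozygous according to the series' design text, and 3 from wild-type (WT) mice. ΔNLS names the loss of the receptor's nuclear localisation signal, and no treatment or other allele is named for either genotype. The sources used here do not state strain, sex, age, culture or how many mice the libraries represent. The spread behind each p-value is that between these libraries and may be technical in part. Levels are in FPKM, fragment numbers divided by the length of the transcript and by the library's mapped total, summed over the listed transcripts of a gene. Because they are per length they can be set side by side between genes, as far as the listed transcripts cover each gene.

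A cell enters S phase when cyclin-dependent kinases phosphorylate the retinoblastoma protein RB and so free the E2F transcription factors. The INK4 inhibitors, among them p16 (Cdkn2a), p15 (Cdkn2b) and p18 (Cdkn2c), bind the cyclin D partners CDK4 and CDK6, and the CIP/KIP inhibitors p21 (Cdkn1a) and p27 (Cdkn1b) act mainly on complexes with CDK2. Cdkn2a also encodes Arf, a different protein read from the same second exon in another frame, which binds MDM2, the ubiquitin ligase that keeps p53 (Trp53) low. In turn p53 activates Cdkn1a, Mdm2, Ccng1 and Trp53inp1, and p16 accumulates in senescent cells, marrow stromal cells in long culture included.

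The sequences that tell the p16 and Arf forms apart are their first coding exons, shown from the start codon in capitals, on the minus strand of mm10, from the GENCODE M21 transcripts. The p16 stretch lies at chr4:89282052-89282111 and the Arf stretch at chr4:89294464-89294523, and the annotated start of the Arf transcript is 12461 bases upstream of that of p16.
p16 form, first 60 coding bases: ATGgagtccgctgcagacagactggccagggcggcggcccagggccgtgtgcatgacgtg
Arf form, first 60 coding bases: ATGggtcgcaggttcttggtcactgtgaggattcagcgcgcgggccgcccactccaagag
Both forms continue into the same exon, whose first 30 bases, at chr4:89276956-89276985, are shown because both proteins use them.
Shared second exon, first 30 bases: gtgatgatgatgggcaacgttcacgtagca
The p16 form enters this exon after 126 coding bases, a whole number of codons, and the Arf form after 190, which leaves 1 base over and puts Arf in another frame. The coding parts of both forms share 317 bases of this exon (chr4:89276669-89276985), so reads there do not belong to 1 form, and the division between forms was StringTie's estimate.

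Promoter sequences from RefSeq (GRCm38.p6, the same coordinates as mm10) were found for 8 of the 10 genes, in 11 windows of 300 bases; Trp53inp1 and Rb1 had none in the table used here. Shown are the bases before the start for the 3 neighbouring starts on chromosome 4 and for Cdkn1a, the best-known p53 target. Capitals mark a match to the E2F motif TTTCCCGC in the Arf window and to a full p53 site in the Cdkn1a window.
Arf start, chr4:89294654-89294869, minus strand: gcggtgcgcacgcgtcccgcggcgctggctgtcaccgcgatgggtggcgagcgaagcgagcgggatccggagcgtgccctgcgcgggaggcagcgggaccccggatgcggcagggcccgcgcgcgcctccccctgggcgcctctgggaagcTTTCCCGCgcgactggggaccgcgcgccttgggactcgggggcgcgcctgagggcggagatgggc
p16 start, chr4:89282193-89282442, minus strand: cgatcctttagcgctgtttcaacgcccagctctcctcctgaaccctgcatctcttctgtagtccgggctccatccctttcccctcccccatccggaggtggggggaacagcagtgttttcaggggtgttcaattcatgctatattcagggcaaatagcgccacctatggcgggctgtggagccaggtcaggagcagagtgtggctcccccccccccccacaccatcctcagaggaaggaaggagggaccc
Cdkn2b start, chr4:89311040-89311282, minus strand: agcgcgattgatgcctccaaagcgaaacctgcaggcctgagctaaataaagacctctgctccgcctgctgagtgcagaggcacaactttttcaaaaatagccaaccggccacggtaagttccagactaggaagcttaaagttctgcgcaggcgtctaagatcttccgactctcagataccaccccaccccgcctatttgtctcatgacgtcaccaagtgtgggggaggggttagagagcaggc
Cdkn1a upstream start, chr17:29090729-29090978, plus strand: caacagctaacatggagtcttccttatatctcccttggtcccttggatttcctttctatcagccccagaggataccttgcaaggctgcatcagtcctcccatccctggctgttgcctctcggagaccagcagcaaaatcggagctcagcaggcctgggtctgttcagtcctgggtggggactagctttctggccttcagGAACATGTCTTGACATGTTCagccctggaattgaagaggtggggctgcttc
Motifs were searched on both strands, TTTCCCGC and TTTGGCGC for E2F and for p53 the full site of the published consensus. That site was taken as a pair of 10-base elements with no bases between them and at most 1 mismatch. The mismatch had to lie outside the middle bases CWWG of each element, where W is A or T. Of 32851 promoter windows in the table, 1.56% held either E2F motif (1.07% the first, 0.514% the second). By this rule 0.0548% held a full p53 site. In Arf the E2F match began 99 bases before the RefSeq start, and in Cdkn1a the p53 match began 51 bases before the start. No match to these motifs was found in the p16 and Cdkn2b windows shown. The windows of Mdm2, Ccng1, Trp53 and Cdkn1a held the 10-base element of which the full site has a pair, as did 8.36% of all windows. In Ccng1 the 10 bases just before it differ from the element at 1 of the middle bases CWWG. The published consensus with 1 mismatch would include that pair, but the rule used here left it out. A search allowing such a mismatch was not run.

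Of 10905 genes tested with limma (Benjamini-Hochberg adjusted p under 0.05), 17.3% differed between genotypes, 10.4% being lower and 6.94% higher in Pth1rΔNLS. The mitochondrial share of FPKM was 18.2, 12.8 and 10.6% in Pth1rΔNLS libraries 1, 2 and 3, against 6.47, 12.8 and 9.33% in WT libraries 1, 2 and 3. Depth in reads is unknown. Of 13 tested stromal and osteoblast markers 11 fell and 0 rose (summed level 5641 to 6512 FPKM in Pth1rΔNLS and 6742 to 6986 FPKM in WT). Most of that sum was Spp1, which did not pass, at 5864, 5555 and 4902 FPKM in Pth1rΔNLS and 4601, 5076 and 5049 FPKM in WT. The sum therefore does not show the size of the falls in the other markers. Of 20 macrophage markers 15 rose and 0 fell (summed level 8909 to 9451 FPKM in Pth1rΔNLS and 6690 to 6956 FPKM in WT), none of them at 0 in any library. The number of macrophage markers higher was 7 without Pth1rΔNLS 2, 9 without WT 1, 7 without WT 3 and 5 without the libraries of lowest and highest mitochondrial share (WT 1 and Pth1rΔNLS 1), where 7 stromal markers fell. The libraries labelled stromal cells thus held abundant macrophage transcripts in both genotypes. Of the other cell types checked, endothelial markers summed to 6.28 to 7.35 FPKM in Pth1rΔNLS and 10.5 to 12.6 FPKM in WT, with 2 of 3 tested lower. Genes listed as adipocyte markers summed to 233 to 260 FPKM in Pth1rΔNLS and 175 to 186 FPKM in WT, with 2 of 4 tested higher. Among them Adipoq was below the filter, at 0.385 to 1.14 FPKM in Pth1rΔNLS and 0.393 to 0.936 FPKM in WT. Nearly all of the sum thus came from the others, and whether these stand for adipocytes was not tested. The 2 neutrophil markers in the table stayed between 0.374 and 1.56 FPKM in sum. No B cell, T cell or erythroid marker looked up was among the named genes, so these types were not analysed here. Fewer cells of a type and less RNA per cell cannot be told apart in these bulk libraries, and the part of the marker changes in the results below was not tested.

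Among the 10 genes, 4 fell in Pth1rΔNLS cells: Cdkn2b to 40.2% of its WT mean, Trp53inp1 to 54.5%, Cdkn2a to 54.8% and Ccng1 to 68.0%. Of all genes tested 10.4% were lower. As the 10 were chosen with earlier results of these data known, their count is no independent evidence. None of the 10 rose, and 6 did not pass the test, Trp53, Cdkn1a, Cdkn1b, Cdkn2c, Rb1 and Mdm2. All 10 passed the filter on low values (a mean over libraries of 1 FPKM or more). The libraries of the genotypes did not overlap for 6 of the 10, as for 36.6% of all tested genes, with 5 of them below the WT range and 1 above it. The median log2 fold change of the 10 was -0.29, beside -0.01 for all genes tested. The 4 falls passed in each of 14 other ways of processing the values, among them leaving out each library in turn, and the other 6 genes passed in none.

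**Figure D1:**
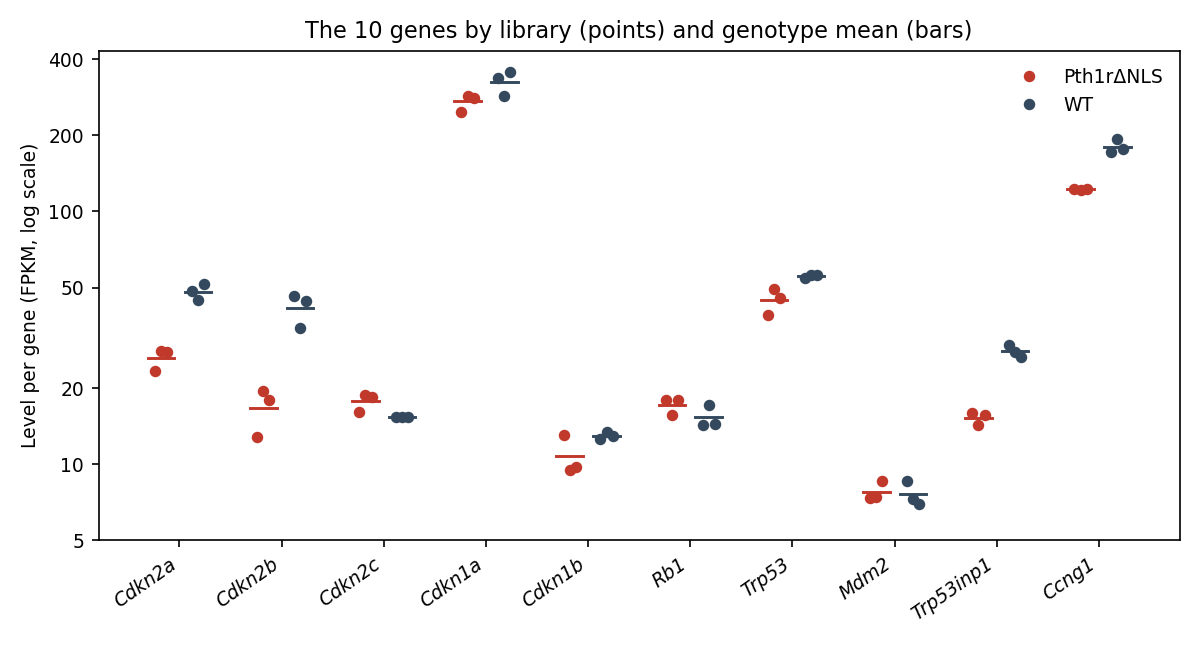
FPKM per gene on a log axis for the 10 genes, with a point for each library (Pth1rΔNLS left, WT right) and a bar at the mean of 3 libraries. The points of Cdkn2a, Cdkn2b, Trp53inp1, Ccng1 and Trp53 lie below those of WT, those of Cdkn2c lie above, and those of Cdkn1a, Cdkn1b, Rb1 and Mdm2 overlap.

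Cdkn2a, the gene of p16 and Arf (chr4:89274471-89294653, minus strand), measured 23.3, 28.0 and 27.9 FPKM in the Pth1rΔNLS libraries, against 48.3, 44.5 and 51.7 FPKM in the WT libraries. Every Pth1rΔNLS library lay well below every WT library. The means were 26.4 ± 2.69 FPKM in Pth1rΔNLS and 48.2 ± 3.56 FPKM in WT (SD, n = 3 each), a log2 fold change of -0.85 (SE 0.10, limma adjusted p = 0.00278). Over the 14 alternatives the adjusted p was between 0.00120 and 0.0350.

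The p16 form, the transcript Cdkn2a-201 (852 bases, 168 codons), stood at 13.5, 15.1 and 16.2 FPKM in Pth1rΔNLS and 26.8, 25.5 and 24.4 FPKM in WT. The Arf form, Cdkn2a-202 (895 bases, 169 codons), stood at 9.79, 12.9 and 11.7 FPKM in Pth1rΔNLS and 21.6, 19.1 and 27.2 FPKM in WT. Both forms were thus lower in all 3 Pth1rΔNLS libraries than in any WT library. Of the 20 listed transcripts of the 10 genes 18 were tested, and 5 fell and 0 rose: both Cdkn2a forms and the single listed forms of Cdkn2b, Trp53inp1 and Ccng1. In a fit over 17281 transcripts, of which 3.39% were lower in Pth1rΔNLS, p16 fell by 0.74 on the log2 scale (SE 0.092, limma adjusted p = 0.0131). Arf fell by 0.92 (SE 0.16, limma adjusted p = 0.0389). The p16 call was lost without Pth1rΔNLS 2 (adjusted p = 0.0633), WT 1 (0.0551) or WT 3 (0.0522). The Arf call was lost without any 1 library other than WT 2, with adjusted p from 0.0940 to 0.121, and without WT 1 and Pth1rΔNLS 1 together the values were 0.127 for p16 and 0.239 for Arf.

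The p16 form made up 57.9, 54.1 and 58.1% of Cdkn2a FPKM in Pth1rΔNLS libraries and 55.4, 57.2 and 47.3% in WT libraries. WT 3 had the lowest share, and the other WT libraries lay within the Pth1rΔNLS range. The means were 56.7 ± 2.27% in Pth1rΔNLS and 53.3 ± 5.27% in WT, a difference of 3.43 percentage points (exact two-sided permutation test p = 0.5, where 0.1 is the smallest possible with 20 assignments). Without WT 3 the difference was 0.425 points. A change in the balance of p16 and Arf was not detectable with these libraries.

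Cdkn2b, which encodes p15 and lies next to Cdkn2a (chr4:89306299-89311039, minus strand), measured 12.8, 19.5 and 17.9 FPKM in Pth1rΔNLS, against 46.1, 34.5 and 44.3 FPKM in WT. The highest Pth1rΔNLS library was well below the lowest WT library, although spread within each genotype was wider than for Cdkn2a. The means were 16.7 ± 3.51 FPKM in Pth1rΔNLS and 41.7 ± 6.24 FPKM in WT (SD, n = 3 each). The log2 fold change of -1.28 (SE 0.18, limma adjusted p = 0.00561) was the largest of the 10 genes. As a single transcript in the fit over transcripts it had an adjusted p of 0.0232, which became 0.0583 without Pth1rΔNLS 2, 0.0733 without Pth1rΔNLS 3, 0.0866 without WT 1, 0.0933 without WT 3 and 0.129 without WT 1 and Pth1rΔNLS 1.

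The nearest tested gene other than these on chromosome 4 was Mtap, which encodes the methylthioadenosine phosphorylase (chr4:89137122-89181081, plus strand). It measured 43.5, 38.4 and 36.0 FPKM in Pth1rΔNLS and 38.1, 46.6 and 41.9 FPKM in WT. Its libraries overlapped and the log2 fold change was -0.10 (limma adjusted p = 0.574).

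Cdkn2c, which encodes p18 (chr4:109660876-109667189, minus strand), stood at 16.1, 18.7 and 18.4 FPKM in Pth1rΔNLS, against 15.3, 15.4 and 15.3 FPKM in WT. It was the 1 gene of the 10 whose Pth1rΔNLS libraries all lay above WT, but its log2 fold change of 0.20 (SE 0.083, limma adjusted p = 0.170) did not pass. Its transcripts, which begin at different exons and encode the same 504 coding bases, lay on opposite sides of WT. Cdkn2c-201, from the downstream start, had 4.36, 5.11 and 4.42 FPKM in Pth1rΔNLS and 5.29, 6.66 and 7.20 FPKM in WT. Cdkn2c-202, from the upstream start, had 11.7, 13.6 and 14.0 FPKM in Pth1rΔNLS and 10.004, 8.75 and 8.12 FPKM in WT. Neither transcript passed (log2 fold change -0.38 and limma adjusted p = 0.231 for the first, 0.50 and 0.0800 for the second). The downstream form's share of the gene was 26.1 ± 1.83% in Pth1rΔNLS and 41.6 ± 6.38% in WT without overlap (exact two-sided permutation p = 0.1, the smallest possible, which cannot pass).

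**Figure D2:**
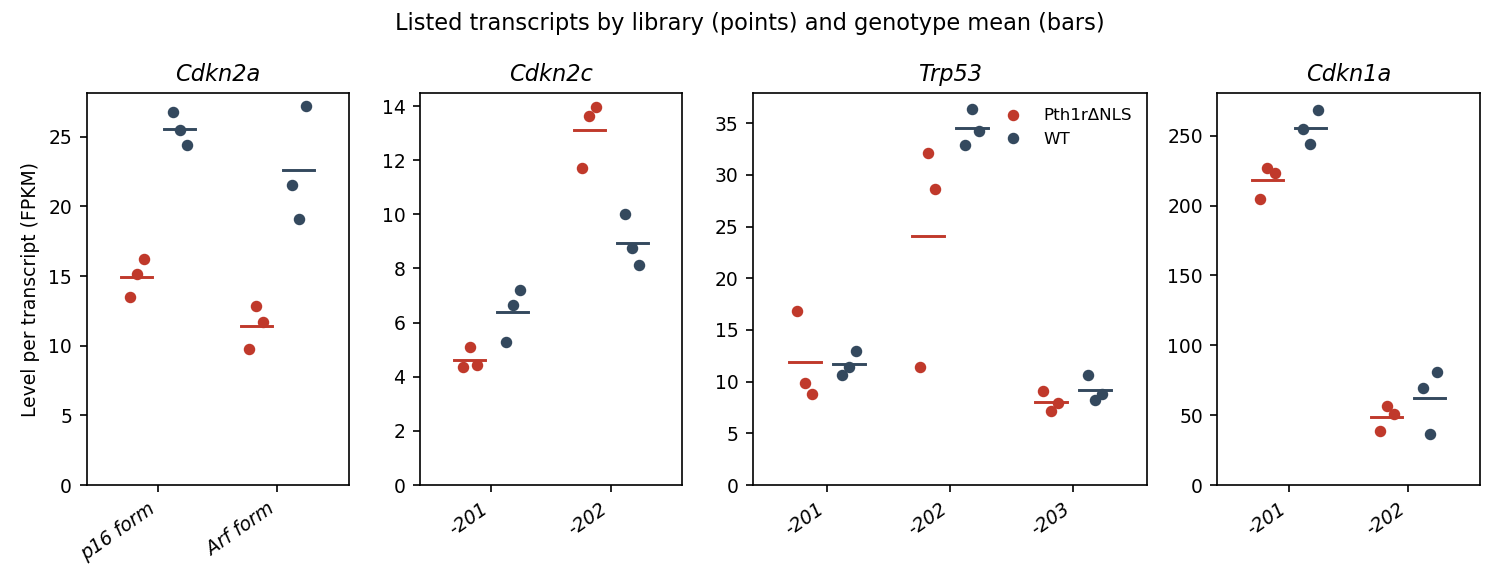
FPKM per transcript for the listed forms of Cdkn2a, Cdkn2c, Trp53 and Cdkn1a (Trp53-206 and Cdkn1a-203 are not drawn), with a point per library and a bar at each mean. Both Cdkn2a forms are lower in Pth1rΔNLS, the Cdkn2c forms lie on opposite sides of WT, and Trp53-202 is at 11.5 FPKM in Pth1rΔNLS 1 against 28.7 and 32.1 FPKM in the other Pth1rΔNLS libraries.

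Cdkn1a, which encodes p21 (chr17:29090976-29100727, plus strand), was the most abundant of the 10 genes and did not pass. It measured 248, 287 and 282 FPKM in Pth1rΔNLS, against 337, 286 and 355 FPKM in WT. WT 2 lay among the Pth1rΔNLS libraries. Its log2 fold change came to -0.25 (SE 0.11, limma adjusted p = 0.163; 0.0553 to 0.502 over the 14 alternatives). Most of it came from Cdkn1a-201, with 205, 227 and 224 FPKM in Pth1rΔNLS and 255, 244 and 269 FPKM in WT, which did not overlap and did not pass (limma adjusted p = 0.145). Cdkn1a-202, the form whose start follows the p53 site shown above, had 39.0, 56.3 and 51.1 FPKM in Pth1rΔNLS and 69.1, 36.7 and 80.7 FPKM in WT (limma adjusted p = 0.691). Here WT spread over more than the whole Pth1rΔNLS range. The third form, Cdkn1a-203, stayed between 4.23 and 7.65 FPKM in Pth1rΔNLS and between 5.21 and 13.5 FPKM in WT (limma adjusted p = 0.589).

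Cdkn1b, which encodes p27 (chr6:134920401-134925513, plus strand), measured 13.04, 9.51 and 9.76 FPKM in Pth1rΔNLS and 12.5, 13.4 and 12.9 FPKM in WT. Pth1rΔNLS 1 lay within the WT range and the other Pth1rΔNLS libraries below it, and the log2 fold change of -0.26 (SE 0.13, limma adjusted p = 0.232) did not pass. Its form Cdkn1b-203 was listed at 0 in all 3 Pth1rΔNLS libraries and in WT 3, and at 2.81 and 3.02 FPKM in WT 1 and WT 2. An exact 0 can be a failed estimate, and this form was below the filter. The other forms, Cdkn1b-201 and Cdkn1b-202, had fold changes of -0.02 and -0.07 on the log2 scale (limma adjusted p = 0.986 and 0.865). Of the inhibitors outside the 10 genes, Cdkn2d, which encodes the INK4 protein p19, averaged 5.22 ± 0.977 FPKM in Pth1rΔNLS and 4.15 ± 0.236 FPKM in WT (limma adjusted p = 0.272), and Cdkn1c was not analysed here.

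Rb1, which encodes the RB protein that these inhibitors keep active (chr14:73183673-73325822, minus strand), measured 18.005, 15.6 and 17.9 FPKM in Pth1rΔNLS, against 14.3, 17.2 and 14.5 FPKM in WT. The libraries overlapped, through Pth1rΔNLS 2 and WT 2, with a log2 fold change of 0.16 (SE 0.10, limma adjusted p = 0.362). On the opposite strand Rcbtb2 spans exons 21 to 27 of the listed Rb1 transcript, and it stood at 42.1, 38.9 and 36.8 FPKM in Pth1rΔNLS and 20.3, 25.1 and 23.9 FPKM in WT. Lpar6, also on the opposite strand, lies between exons 17 and 18 and covers no exon of that transcript, and it stood at 18.5, 16.9 and 15.9 FPKM in Pth1rΔNLS and 13.8, 15.0 and 13.9 FPKM in WT. The sources used here do not state whether counting used strand, so reads of Rb1 and of Rcbtb2 may not be told apart.

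Trp53, the gene of p53 (chr11:69580359-69591873, plus strand), measured 38.8, 49.2 and 45.6 FPKM in Pth1rΔNLS, against 54.4, 56.1 and 56.1 FPKM in WT. All Pth1rΔNLS libraries were below the narrow WT range, with Pth1rΔNLS 1 the lowest, but the log2 fold change of -0.32 (SE 0.096) did not pass (limma adjusted p = 0.0696; 0.0606 to 0.197 over the 14 alternatives). An annotated processed pseudogene, Trp53-ps, could share its reads. Among its listed forms Trp53-202 differs at the protein's C-terminal end, as it begins its last exon 96 bases earlier than Trp53-201 and reads another ending. The coding bases of the last exon are shown for both, plus strand, because this is where the forms part.
Trp53-201, chr11:69591350-69591428, last 79 coding bases: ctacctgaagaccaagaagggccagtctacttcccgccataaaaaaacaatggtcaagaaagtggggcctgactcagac
Trp53-202, chr11:69591254-69591305, last 52 coding bases: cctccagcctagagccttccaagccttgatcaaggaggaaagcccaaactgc
Trp53-202, with 378 codons where Trp53-201 has 387, was the most abundant form in 5 of the 6 libraries. It stood at 11.5, 32.1 and 28.7 FPKM in Pth1rΔNLS and 32.9, 36.4 and 34.3 FPKM in WT. In Pth1rΔNLS 1 it was 29.5% of the gene, against 65.2 and 62.8% in the other Pth1rΔNLS libraries and 60.5, 64.9 and 61.1% in WT. Pth1rΔNLS 1 thus stood apart from the other 5 libraries, and it also had the highest mitochondrial share. In the same library Trp53-201 was at 16.8 FPKM, against 9.89 and 8.82 FPKM in the other Pth1rΔNLS libraries and 10.7 to 12.98 FPKM in WT, and Trp53-206 at 1.42 FPKM, against 0.075 to 0.186 FPKM in the other 5. Trp53-203 stayed between 7.14 and 9.07 FPKM in Pth1rΔNLS and between 8.22 and 10.6 FPKM in WT. No form passed (limma adjusted p = 0.453 for Trp53-202, 0.970 for Trp53-201 and 0.574 for Trp53-203, with Trp53-206 below the filter).

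Mdm2, both the ligase that degrades p53 and a p53 target (chr10:117688875-117710758, minus strand), had the lowest summed level of the 10 genes and did not pass. Only 2 of its 9 annotated transcripts were listed. It measured 7.36, 7.43 and 8.55 FPKM in Pth1rΔNLS and 8.59, 7.29 and 6.92 FPKM in WT. The genotypes covered the same range, with a log2 fold change of 0.03 (SE 0.11, limma adjusted p = 0.879). Its forms Mdm2-201 (2.34, 1.38 and 1.55 FPKM in Pth1rΔNLS; 3.78, 3.20 and 1.37 FPKM in WT) and Mdm2-202 (5.02, 6.04 and 7.01 FPKM in Pth1rΔNLS; 4.81, 4.09 and 5.55 FPKM in WT) overlapped too (limma adjusted p = 0.563 and 0.449).

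Trp53inp1, which encodes a stress-induced p53 target that also takes part in autophagy (chr4:11156431-11174379, plus strand), measured 15.9, 14.3 and 15.6 FPKM in Pth1rΔNLS, against 29.7, 27.8 and 26.5 FPKM in WT. The genotypes were far apart with little spread in either. Means were 15.3 ± 0.875 FPKM in Pth1rΔNLS and 28.0 ± 1.58 FPKM in WT, and the log2 fold change of -0.83 (SE 0.080, limma adjusted p = 0.00135; at most 0.0281 over the 14 alternatives) had the smallest p of the 10 genes.

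Ccng1, which encodes cyclin G1, a p53 target that recruits a phosphatase to MDM2 (chr11:40748552-40755311, minus strand), measured 122.7, 122.2 and 123.03 FPKM in Pth1rΔNLS. It measured 171, 193 and 176 FPKM in WT. The Pth1rΔNLS libraries were nearly equal and all below WT, with a log2 fold change of -0.55 (SE 0.067, limma adjusted p = 0.00324; at most 0.0383 over the 14 alternatives). In the fit over transcripts, where each of these genes has 1 listed form, the adjusted p was 0.00661 for Trp53inp1 and 0.00993 for Ccng1. Ccng1 had 0.0555 there without Pth1rΔNLS 2, and without WT 1 and Pth1rΔNLS 1 the values were 0.1003 for Trp53inp1 and 0.112 for Ccng1.

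Of 26 other p53 target genes tested, 8 fell, 0 rose and 18 did not pass, that is 30.8% lower beside 10.4% of all genes, with a median log2 fold change of -0.24. The list was drawn up with earlier results of these data known, so its direction is no independent evidence. Pmaip1, encoding the BH3-only death protein NOXA, had 13.4, 13.9 and 14.6 FPKM in Pth1rΔNLS and 33.2, 31.7 and 30.01 FPKM in WT (log2 fold change -1.12, limma adjusted p = 0.000385). Btg2, an antiproliferative gene, had 15.998, 18.2 and 17.98 FPKM in Pth1rΔNLS and 36.7, 33.1 and 32.7 FPKM in WT (-0.93, limma adjusted p = 0.00112). Fas, the death receptor, had 9.09, 8.14 and 7.67 FPKM in Pth1rΔNLS and 20.5, 24.2 and 18.7 FPKM in WT (-1.25, limma adjusted p = 0.00130). In all 3 the genotypes were far apart. The other 5 that fell were Ddit4, an inhibitor of mTORC1, Eda2r and Tnfrsf10b, receptors of the TNF receptor family, Phlda3, an inhibitor of AKT, and Polk, a translesion DNA polymerase, chosen for mention after their values were seen. Bax, the pore-forming death effector, averaged 52.6 ± 8.90 FPKM in Pth1rΔNLS and 45.3 ± 4.48 FPKM in WT (limma adjusted p = 0.376). Rps27l, the most abundant of the list that did not pass, averaged 197 ± 34.8 FPKM in Pth1rΔNLS and 196 ± 19.1 FPKM in WT (limma adjusted p = 0.986). Over all 6 libraries 11 of 13 stromal markers fell too. Without WT 1 and Pth1rΔNLS 1, the number lower was 6 for these targets and 7 for stromal markers.

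**Figure D3:**
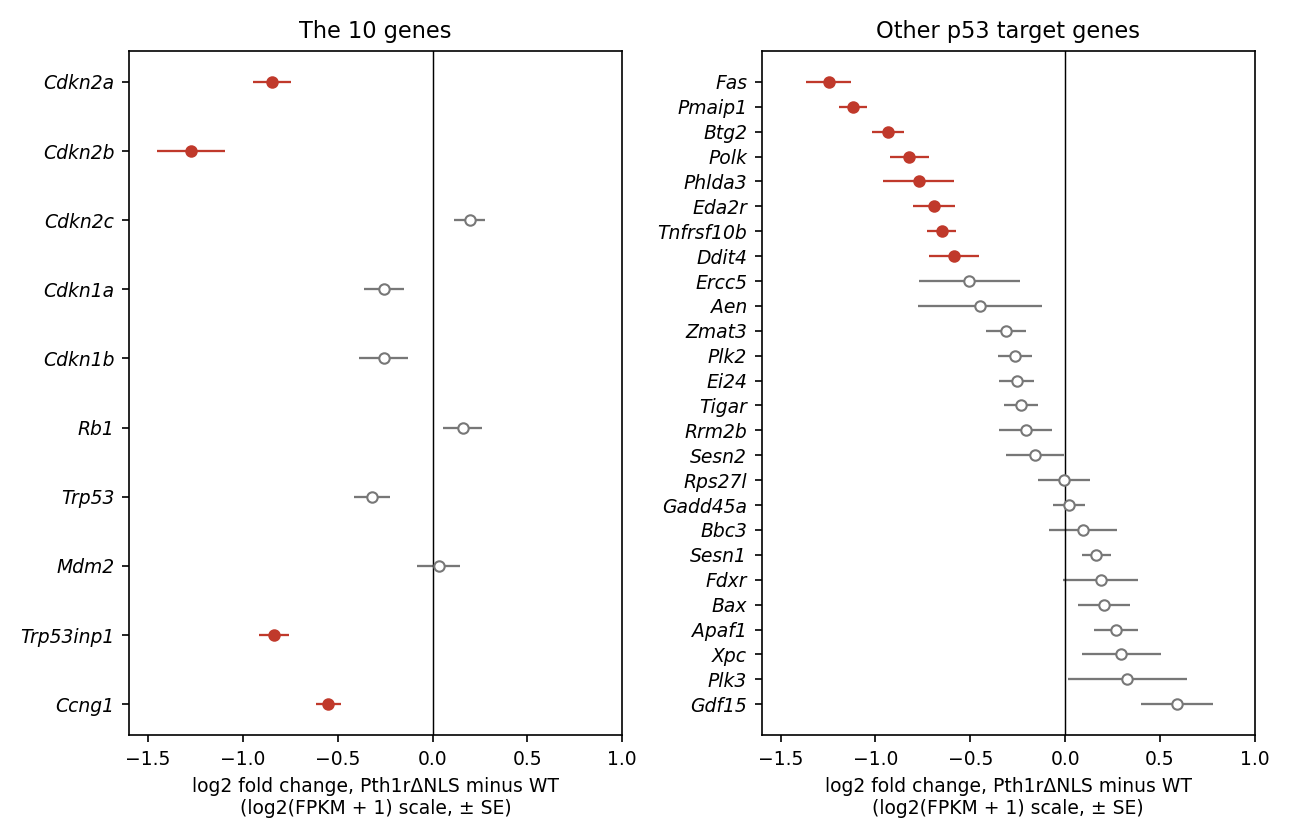
Log2 fold change, Pth1rΔNLS minus WT, with its limma standard error (bars) for the 10 genes and for 26 other p53 target genes; filled points passed at an adjusted p of 0.05. Filled points are Cdkn2a, Cdkn2b, Trp53inp1 and Ccng1 on the left and 8 targets on the right, all below 0.

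Of 19 genes that act on p53 itself, among them its kinases, ligases, deubiquitinases and acetyltransferases, 1 rose, 0 fell and 18 did not pass. That is 5.26% higher, beside 6.94% of all genes. Crebbp, encoding the acetyltransferase CBP, averaged 13.2 ± 0.694 FPKM in Pth1rΔNLS and 9.81 ± 0.455 FPKM in WT (log2 fold change 0.39, limma adjusted p = 0.0223). That call was lost without Pth1rΔNLS 2 (0.0843), Pth1rΔNLS 3 (0.0805), WT 1 (0.0584), WT 3 (0.0787) or both WT 1 and Pth1rΔNLS 1 (0.101).

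Of 13 tested genes known to act on transcription of Cdkn2a, 2 rose, 2 fell and 9 did not pass (median -0.08). That is 15.4% each way, beside 6.94% of all genes higher and 10.4% lower. Twist1, a bHLH factor that represses Ink4a/Arf, averaged 5.14 ± 0.101 FPKM in Pth1rΔNLS and 8.29 ± 0.0983 FPKM in WT (log2 fold change -0.60, limma adjusted p = 0.00482). Rnf2, the ubiquitin ligase of the Polycomb complex PRC1, averaged 12.96 ± 1.15 FPKM in Pth1rΔNLS and 19.1 ± 1.61 FPKM in WT (-0.53, limma adjusted p = 0.0154). Both lay below WT in all 3 Pth1rΔNLS libraries, while the 2 that rose lay above WT in all 3. Ezh2, the histone H3 methyltransferase of PRC2, averaged 12.1 ± 0.438 FPKM in Pth1rΔNLS and 8.49 ± 1.33 FPKM in WT (0.48, limma adjusted p = 0.0424). Ets2, an activator of p16 transcription in human cells, averaged 22.5 ± 1.35 FPKM in Pth1rΔNLS and 17.6 ± 0.967 FPKM in WT (0.34, limma adjusted p = 0.0332). The Ezh2 and Ets2 calls were lost without any 1 library other than WT 2 (0.0556 to 0.127 and 0.0719 to 0.107), and the Rnf2 call without Pth1rΔNLS 3 (0.0501). Without WT 1 and Pth1rΔNLS 1 none of these 4 passed (Twist1 0.0732, Rnf2 0.0872, Ezh2 0.134, Ets2 0.160).

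Downstream of the inhibitors were 12 genes for G1 and S phase cyclins, kinases and their activators. Of these 3 rose, 1 fell and 8 did not pass (median 0.23). Higher were 25% and lower 8.33%, beside 6.94% and 10.4% of all genes. Cdk2, the kinase of cyclins E and A, had 5.63, 4.93 and 8.9997 FPKM in Pth1rΔNLS and 2.46, 2.01 and 2.55 FPKM in WT, all apart (log2 fold change 1.14, limma adjusted p = 0.0140). Cdk6, a target of the INK4 proteins, averaged 19.7 ± 1.39 FPKM in Pth1rΔNLS and 13.8 ± 1.26 FPKM in WT (0.48, limma adjusted p = 0.0183). Ccna2, encoding cyclin A2, averaged 17.2 ± 1.76 FPKM in Pth1rΔNLS and 11.2 ± 2.06 FPKM in WT (0.59, limma adjusted p = 0.0343). Cdk6 and Ccna2 too lay above WT in every Pth1rΔNLS library. Ccnd2, encoding cyclin D2, had 106, 109.7 and 117 FPKM in Pth1rΔNLS and 156, 144 and 149 FPKM in WT (-0.43, limma adjusted p = 0.00812). Ccnd1, encoding cyclin D1, overlapped at 164, 177 and 186 FPKM in Pth1rΔNLS and 166, 134 and 163 FPKM in WT (limma adjusted p = 0.260), as did Cks1b (limma adjusted p = 0.987). Cdk6 lost its call without Pth1rΔNLS 1 (0.0583), Pth1rΔNLS 3 (0.0662) or WT 3 (0.0672), and Ccna2 without any 1 library other than WT 2 (0.0774 to 0.105), so that the count of 3 higher was 1 without Pth1rΔNLS 1, Pth1rΔNLS 3 or WT 3. None of the 4 passed without WT 1 and Pth1rΔNLS 1 (0.0729 to 0.198). The macrophage markers, 15 of 20 higher, moved in these libraries too.

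Of 17 RB family, E2F and MuvB genes 1 rose, 0 fell and 16 did not pass (median 0.04). That is 5.88% higher, beside 6.94% of all genes. E2f8, an atypical E2F that represses other E2F targets, averaged 6.75 ± 0.683 FPKM in Pth1rΔNLS and 4.45 ± 0.342 FPKM in WT (log2 fold change 0.51, limma adjusted p = 0.0242), a call lost without any 1 library other than WT 2 (0.0506 to 0.0759). Tfdp1, the dimer partner of the E2Fs, had 21.7, 38.9 and 38.9 FPKM in Pth1rΔNLS and 37.8, 38.0 and 37.9 FPKM in WT (limma adjusted p = 0.528). Pth1rΔNLS 1 alone was low. Rbbp4, an RB-binding histone chaperone, averaged 31.2 ± 0.708 FPKM in Pth1rΔNLS and 32.4 ± 1.18 FPKM in WT (limma adjusted p = 0.640).

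Of 20 replication genes that E2F activates, 6 rose, 1 fell and 13 did not pass (median 0.30). That is 30% higher and 5% lower, beside 6.94% and 10.4% of all genes. Mcm5, a subunit of the replicative helicase, had 12.7, 12.1 and 12.5 FPKM in Pth1rΔNLS and 7.58, 7.02 and 7.06 FPKM in WT, a call kept in all 14 alternatives (limma adjusted p = 0.00229, at most 0.0397). Mcm2, of the same helicase, averaged 10.1 ± 0.0668 FPKM in Pth1rΔNLS and 7.32 ± 0.260 FPKM in WT (0.41, limma adjusted p = 0.0159). Pola1, the catalytic subunit of DNA polymerase alpha, averaged 5.24 ± 0.290 FPKM in Pth1rΔNLS and 3.48 ± 0.166 FPKM in WT (0.48, limma adjusted p = 0.0188). In all 3 genes every Pth1rΔNLS library lay above every WT library. Rrm1, a subunit of ribonucleotide reductase, fell to 27.5 ± 1.81 FPKM in Pth1rΔNLS, against 36.2 ± 1.55 FPKM in WT (-0.38, limma adjusted p = 0.0185). The count of 6 rested on several libraries. It was 2 without Pth1rΔNLS 1, 1 without Pth1rΔNLS 2, 1 without Pth1rΔNLS 3, 2 without WT 1, 4 without WT 2, 1 without WT 3 and 1 without both WT 1 and Pth1rΔNLS 1. Mcm2, Pola1 and Rrm1 each lost their call without Pth1rΔNLS 1, Pth1rΔNLS 2 or WT 3, Mcm2 and Rrm1 also without WT 1, and Mcm2 and Pola1 without Pth1rΔNLS 3 (0.0517 to 0.0679).

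Of 8 tested genes used beside p16 as marks of senescent cells, 1 rose, 2 fell and 5 did not pass. That is 12.5% higher and 25% lower, beside 6.94% and 10.4% of all genes. The marks need not all move the same way in senescent cells, so these counts give no direction for senescence. Igfbp7, a secreted IGF-binding protein, had 223, 279.8 and 259 FPKM in Pth1rΔNLS and 440.2, 443 and 536 FPKM in WT (log2 fold change -0.89, limma adjusted p = 0.00430). Ccl2, a monocyte-attracting chemokine, averaged 96.0 ± 2.76 FPKM in Pth1rΔNLS and 76.8 ± 4.20 FPKM in WT (0.32, limma adjusted p = 0.0217), lost without any 1 library other than WT 2 (0.0537 to 0.0814). Il6, Cxcl1 and Mmp3 of this list were not analysed here.

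**Figure D4:**
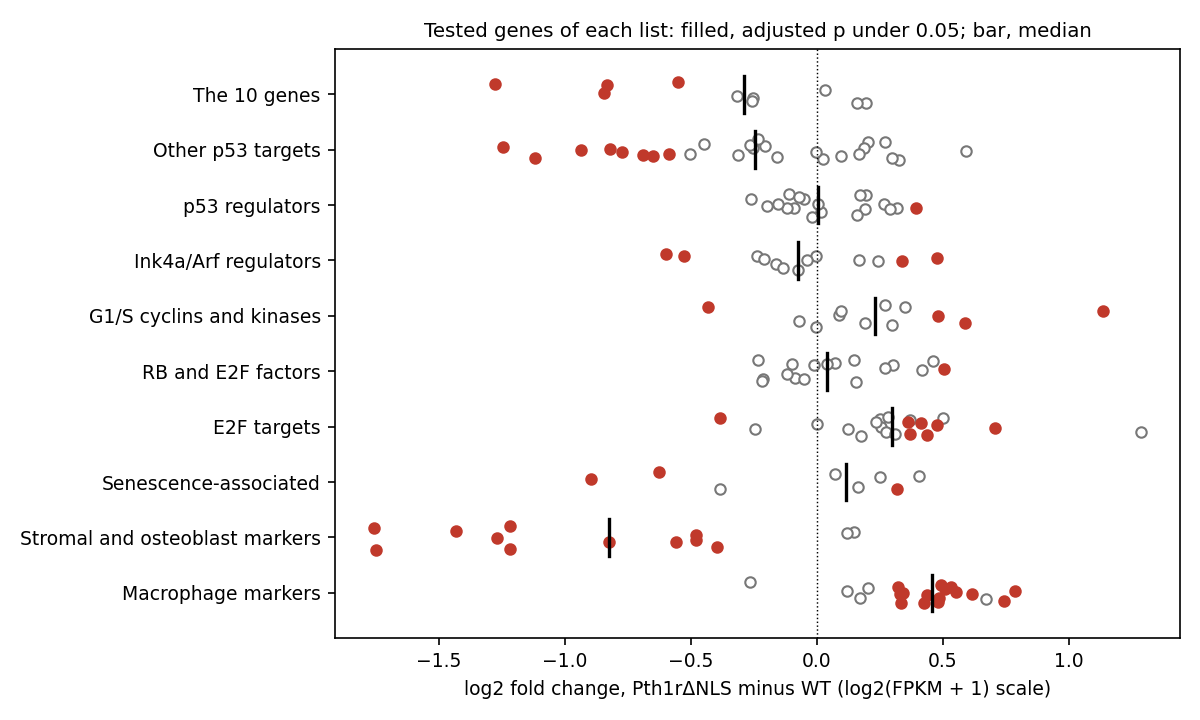
Log2 fold change, Pth1rΔNLS minus WT, of each tested gene in 10 lists, 1 row a list; filled points passed at an adjusted p of 0.05 and the black bar is the list's median. The 10 genes and the other p53 targets hold filled points below 0 only, E2F targets hold 6 above and 1 below, stromal markers have their median at -0.82 and macrophage markers at 0.46.

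By level, the order in Pth1rΔNLS was Cdkn1a, Ccng1, Trp53, Cdkn2a, Cdkn2c, Rb1, Cdkn2b, Trp53inp1, Cdkn1b and Mdm2. In WT it was Cdkn1a, Ccng1, Trp53, Cdkn2a, Cdkn2b, Trp53inp1, Cdkn2c, Rb1, Cdkn1b and Mdm2. In Pth1rΔNLS the neighbours from Cdkn2c to Trp53inp1 overlapped in their libraries and the other neighbours did not, while in WT only Cdkn2a with Cdkn2b and Cdkn2c with Rb1 overlapped. By their means Cdkn2b and Trp53inp1 stood below Cdkn2c and Rb1 in Pth1rΔNLS and above them in WT. These levels sum listed transcripts only, 2 of 9 annotated for Mdm2, 1 of 6 for Rb1 and 1 of 4 for Trp53inp1. For Ccng1 it was 1 of 2, for Cdkn1a 3 of 5 and for Trp53 4 of 6. Every annotated transcript was listed for Cdkn1b, Cdkn2a, Cdkn2b and Cdkn2c. What the unlisted transcripts would do to the order was not tested.

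The pattern of Cdkn2a over the 6 libraries was matched most closely by Cpxm1 and Ggcx (Pearson r of log2 values 0.999 for each) and by Nsmce3 (r = 0.998), as a description across libraries of 2 genotypes. Ggcx, the vitamin K-dependent carboxylase, had 7.07, 7.80 and 8.03 FPKM in Pth1rΔNLS and 11.4, 10.9 and 11.8 FPKM in WT. The pattern of Trp53inp1 was matched most closely by Ccser2 and Pkd2 (r = 0.999 for each) and Ldlrad4 (r = 0.998). Pkd2, which encodes the cation channel polycystin-2, had 28.2, 26.7 and 28.7 FPKM in Pth1rΔNLS and 42.7, 41.0 and 39.0 FPKM in WT. These correlations rest mainly on the gap between genotypes.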

How the data were processed

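Libraries (3 Pth1rΔNLS, 3 WT) were made from total RNA with an Illumina TruSeq kit, per the labels' protocols. Reads were handled with HISAT2, StringTie and mm10, per the submitters' processing notes; the sources used here state no versions, settings or use of strand. The authors deposited 1 value per transcript and library for 23351 transcripts, without naming a unit. They were taken to be FPKM: multiplied by transcript length, the deposited values added up to between 75.03 and 78.1% of the total expected of FPKM, and this sum varied less between libraries (coefficient of variation 1.49%) than the plain sum did (3.46%). Depth is unknown, so no counting interval is given. As FPKM are relative, higher levels of abundant transcripts lower the others. The lowest mean of a listed transcript was 0.251 FPKM.

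Transcripts were matched to GENCODE M21 (23300 matched, 51 not) and summed per gene. The test was limma 3.58.1 (R 4.3.3; lmFit, eBayes with trend) on log2(FPKM + 1), Pth1rΔNLS minus WT, for the 10905 genes averaging 1 FPKM or more, with two-sided p-values adjusted by Benjamini-Hochberg (threshold 0.05). The pseudocount understates changes of low genes. Listed transcripts were fitted likewise, and shares were compared with exact permutation tests. The fits were tested on simulated data. Alternatives were pseudocounts of 0.1 and 0.5, no filter, median scaling, mitochondrial genes left out, array weights, the replicate number as a block, and leaving out libraries. Python 3.11.15, pandas 2.3.3, numpy 2.4.6, scipy 1.17.1 and matplotlib 3.10.9 were used.

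The 10 genes, the lists and the tests were chosen with earlier results of these data known. Named are all 10 genes and their listed transcripts. From each other list, they are up to 3 genes of smallest p that rose and up to 3 that fell, or all tested where a list has 3 or fewer. For p53 targets, G1 cyclins and RB/E2F genes the 2 most abundant that did not pass were added. The 3 genes of highest Pearson r with Cdkn2a and with the gene of smallest p were also named. One gene that this rule names is not reported here.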

Additional observations from a re-analysis of the deposited data

How the results depend on the processing

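The number of the 10 genes that passed was 4 in all 14 alternatives. The number of all genes past the threshold was 1886, against 792 with the replicate number as a block, 617 without WT 1 and Pth1rΔNLS 1 and 1068 to 1695 without 1 library. For transcripts it was 900, against 0 with the replicate block (2527 at an unadjusted p under 0.05, beside 3297 without the block), 14 without WT 1 and Pth1rΔNLS 1 and 345 to 732 without 1 library. Correlations of same-numbered libraries were -0.189, -0.0664 and 0.0657, and those of differently numbered libraries -0.166 to 0.228. With 3 libraries a genotype these values cannot settle whether the number pairs libraries, and the labels do not say. With the block the limma adjusted p of the transcripts was 0.150 for p16, 0.170 for Arf, 0.163 for Cdkn2b, 0.101 for Trp53inp1 and 0.121 for Ccng1. Lists under the block had 5 p53 targets lower, 1 E2F target, 1 G1 gene and 5 macrophage markers higher, and 7 stromal markers lower. Under it the named genes Crebbp, Ets2, Ezh2, Rnf2, Cdk6, Ccna2, Ccnd2, E2f8, Mcm2, Pola1, Rrm1 and Ccl2 did not pass. Their limma adjusted p was 0.0514 for Rnf2, 0.0577 for Ccnd2 and 0.0723 to 0.112 for the others. Twist1, Cdk2 and Mcm5 still passed (limma adjusted p = 0.0486, 0.0275 and 0.0285), as did Pmaip1, Btg2, Fas and Igfbp7 (0.0117 to 0.0215). With mitochondrial genes left out, and with array weights, 9 E2F targets rose. The p16 share difference was 0.425 to 5.37 points without 1 library. Among the 10 genes and their tested transcripts, log2 fold changes that turned direction, all in values that did not pass, were those of Mdm2 (-0.0301 to 0.11 without 1 library), Cdkn1a-203 (0.037 without WT 1 and Pth1rΔNLS 1), Cdkn1b-201 (0.0051 with median scaling, 0.016 without mitochondrial genes, -0.26 to 0.19 without 1 library), Cdkn1b-202 (-0.19 to 0.023 without 1 library) and Trp53-201 (0.0074 without mitochondrial genes, -0.29 to 0.14 without 1 library); the cause was not tested. Among named genes of the other lists, Tfdp1 (-0.37 to 0.037 over the alternatives), Rps27l (-0.15 to 0.12) and Cks1b (-0.088 to 0.13), which did not pass, also turned. With 3 libraries a genotype and unknown depth, the precision of low transcripts such as Cdkn1b-203 and Trp53-206 is not known.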
